A study of Mus musculus with 18 samples.

Results

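Cholesterol is built from acetyl-CoA through mevalonate and isoprenoid units to squalene, which is closed into lanosterol and then trimmed and reduced to cholesterol. The transcription factor SREBP2 drives the genes of this route: when membrane sterol is ample, SCAP and the INSIG proteins hold it in the endoplasmic reticulum, and when sterol falls it is released, cleaved and enters the nucleus. The LXR receptors answer to oxysterols and induce efflux transporters and an E3 ligase for lipoprotein receptors. Alveolar type 2 (AT2) cells, which secrete the lipid film of the lung surface, package cholesterol with phospholipid in lamellar bodies.

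The 32 genes described here are the enzymes and regulators of that system, taken by name from textbook pathway membership, out of 52636 genes in the deposited tables. They comprise 9 enzymes of the precursor part of the route (Acat2, Hmgcs1, Mvk, Pmvk, Mvd, Idi1, Fdps, Fdft1 and Ggps1), 11 enzymes from squalene onwards (Sqle, Lss, Cyp51, Tm7sf2, Lbr, Msmo1, Nsdhl, Hsd17b7, Ebp, Sc5d and Dhcr7), 4 genes of SREBP2 control (Srebf2, Scap, Insig1 and Insig2) and 8 genes of sterol transport and LXR signalling (Stard4, Abca1, Abcg1, Mylip, Nr1h2, Nr1h3, Npc1 and Npc2). All 32 were found in the tables by their Ensembl gene identifiers.

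The study grew mouse lung cells labelled as AT2 for 19 days with the Wnt pathway activator CHIR99201 (named so in the labels) and then changed the Wnt input. Every group is listed with LGK974, a porcupine inhibitor that blocks the secretion of the cells' own Wnt ligands. In 3 groups CHIR99201 was taken away and replaced by an FZD5 agonist, an FZD6 agonist or Wnt, called the FZD5 agonist, FZD6 agonist and WNT groups below. In 2 groups it was taken away for 24 h or 48 h with no replacement, and the CHIR group was the control that had it. Each of the 6 groups has 3 total RNA libraries. The labels give 8 to 12 h for the treatments, leave out the interval without CHIR99201 before a ligand was added, and do not name mouse strain, age, doses or the agonist molecules. Both withdrawal times therefore serve below as references for the ligands. The source of each replicate (culture or animal) is not stated. The p-values therefore reflect library-to-library spread alone, possibly technical.

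The libraries held 31509607 to 52030066 counts in genes, so 3 counts, used as the floor of detection, corresponded to 0.0577 to 0.0952 counts scaled to library size (CPM). That floor covers counting error only. In 14 of the 18 libraries the AT2 marker list summed to 67303 to 94110 CPM, whereas basal, mesenchymal and endothelial lists each summed to at most 0.840 CPM. The other 4 libraries stood apart, with a median correlation to the rest under 0.96: CHIR 1 (0.927), CHIR 3 (0.945), FZD6 agonist 1 (0.95) and 24 h withdrawal 2 (0.782). The last also had 4.13% of its counts in mitochondrial genes, against 0.271% to 0.718% in the other 17 libraries. In these 4 the AT2 list summed to 126348, 122717, 134544 and 166242 CPM in the same order, above every one of the 14. Each result is therefore given with all 18 libraries, fitted together by edgeR, and again with the 14. The correlation was taken to libraries of all groups, so treatment and library quality cannot be told apart in it. CHIR 2 was kept at 0.966, beside 0.978 to 0.982 in the others kept. With 14 libraries the CHIR group is the single library CHIR 2, which is then assumed to vary as the other groups do.

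In the 250 bases before and 50 bases after the RefSeq gene start (GRCm38.p6), 26 of the 32 genes could be read. They had 33 windows, as some genes have more than 1 start, and a gene is counted if any of its windows holds the motif. For Dhcr7, Insig2 and Pmvk only 1 of their windows held CCAAT. The CCAAT motif, bound by NF-Y, a partner of SREBP2 at sterol genes, occurred on either strand in 21 of these 26 genes (80.8%), against 41.1% of 27025 genes with such a window. It was present in 10 of 10 matched enzymes from squalene onwards, in 6 of 7 precursor enzymes, in 3 of 4 SREBP2 control genes and in 2 of 5 transport and LXR genes. A strict sterol regulatory element, TCACNCCAC searched on both strands, occurred in 1 of the 26, Hmgcs1, and in 1.44% of all genes. A direct repeat of AGGTCA spaced by 4 bases, the form an LXR response element takes, occurred in 0 of the 26 genes and in 0.0148% of all genes. A match is a description of letters and no match says only that these letters are not in this window. The motifs do not overlap in the windows printed here.

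The window of Hmgcs1 is shown because it alone held the sterol element, those of Insig1, Cyp51 and Lbr because these genes differed between the ligand and withdrawal groups, and that of Npc2 because it was lower where Cyp51 and Lbr were higher. The capitals mark the CCAAT motif (in reverse complement where it lies on the other strand) and, in Hmgcs1, TCACCCCAC, the sterol element, whose first base is at -137 from the gene start. Hmgcs1 is read on the plus strand at chr13:119690101-119690400, Insig1 on the plus strand at chr5:28071162-28071461, Cyp51 on the minus strand at chr5:4104648-4104947, Lbr on the minus strand at chr1:181842352-181842651 and Npc2 on the minus strand at chr12:84773063-84773362.
Hmgcs1: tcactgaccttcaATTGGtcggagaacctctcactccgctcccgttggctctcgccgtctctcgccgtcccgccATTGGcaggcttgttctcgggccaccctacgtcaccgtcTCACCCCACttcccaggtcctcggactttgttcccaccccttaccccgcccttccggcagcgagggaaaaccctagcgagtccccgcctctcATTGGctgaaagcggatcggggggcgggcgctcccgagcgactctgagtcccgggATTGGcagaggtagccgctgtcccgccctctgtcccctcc
Insig1: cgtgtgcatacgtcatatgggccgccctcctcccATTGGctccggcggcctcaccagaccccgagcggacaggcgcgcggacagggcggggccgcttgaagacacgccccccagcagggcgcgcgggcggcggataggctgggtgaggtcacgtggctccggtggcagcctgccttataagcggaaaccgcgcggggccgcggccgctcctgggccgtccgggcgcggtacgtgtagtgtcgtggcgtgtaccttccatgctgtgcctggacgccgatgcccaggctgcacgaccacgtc
Cyp51: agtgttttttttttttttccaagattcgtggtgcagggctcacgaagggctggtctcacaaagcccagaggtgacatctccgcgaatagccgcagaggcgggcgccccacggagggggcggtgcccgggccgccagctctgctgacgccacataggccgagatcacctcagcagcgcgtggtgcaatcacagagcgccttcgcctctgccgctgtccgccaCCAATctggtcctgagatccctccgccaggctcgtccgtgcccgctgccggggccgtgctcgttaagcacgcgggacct
Lbr: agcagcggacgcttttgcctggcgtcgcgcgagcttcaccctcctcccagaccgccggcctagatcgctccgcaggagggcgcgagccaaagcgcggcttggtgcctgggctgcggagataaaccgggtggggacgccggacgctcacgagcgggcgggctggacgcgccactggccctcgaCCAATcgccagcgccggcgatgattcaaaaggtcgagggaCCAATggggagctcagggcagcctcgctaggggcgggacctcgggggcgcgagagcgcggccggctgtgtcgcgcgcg
Npc2: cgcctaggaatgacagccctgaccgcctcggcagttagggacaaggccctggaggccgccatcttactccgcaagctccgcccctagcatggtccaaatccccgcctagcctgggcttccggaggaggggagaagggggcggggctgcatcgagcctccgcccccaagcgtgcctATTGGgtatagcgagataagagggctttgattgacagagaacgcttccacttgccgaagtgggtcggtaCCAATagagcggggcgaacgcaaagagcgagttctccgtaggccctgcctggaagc
Hmgcs1 holds 4 CCAAT matches, which start at -237, -176, -45 and 10, Lbr holds 2 at -68 and -28, and Npc2 holds 2 at -75 and -6. Cyp51 holds 1 at -29 and Insig1 holds 1 at -216.

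Levels are compared between genes per length, as the deposited reads scaled by gene length and depth (RPKM), over the 14 libraries. The highest level was that of Npc2, the soluble carrier that takes cholesterol out of lysosomes, with a median of 593 RPKM (lowest 392, highest 951). Among the enzymes the highest was Sqle, squalene epoxidase, which commits squalene to sterols, with a median of 167 RPKM (148 to 182). Msmo1, the sterol C4-methyl oxidase, followed at 98.9 RPKM (89.5 to 108), and Hmgcs1, the synthase that makes HMG-CoA, at 88.1 RPKM (60.2 to 100). The range of Sqle lies above that of Msmo1, and the ranges of Msmo1 and Hmgcs1 overlap. Mvd, mevalonate diphosphate decarboxylase, was at 79.1 RPKM (63.0 to 86.7), within the range of Hmgcs1 and below that of Msmo1.

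The other precursor enzymes ran downwards through Pmvk (71.9 RPKM), Acat2 (51.9 RPKM), Mvk, mevalonate kinase (21.7 RPKM), and Fdft1, Ggps1, Fdps and Idi1, which had medians of 9.75, 9.28, 6.68 and 1.43 RPKM. Among the other enzymes from squalene onwards, Lss, which closes squalene epoxide into lanosterol, Cyp51 and Lbr had medians of 60.1, 57.3 and 45.5 RPKM. Dhcr7, Nsdhl and Ebp lay at 29.1, 26.8 and 23.5 RPKM, Sc5d and Tm7sf2 at 18.9 and 18.8 RPKM, and Hsd17b7 at 10.1 RPKM. Every one of the 20 enzymes was thus detected in all 14 libraries.

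In SREBP2 control, Insig1 had a median of 69.3 RPKM (54.5 to 88.2) and Srebf2, which encodes SREBP2, 42.9 RPKM (34.9 to 51.7). Insig2, the second INSIG protein, was at 22.9 RPKM and Scap, the SREBP escort, at 14.7 RPKM. Nr1h2, which encodes LXRβ, was at 62.8 RPKM (58.5 to 70.9), while Nr1h3, which encodes LXRα, was at 1.89 RPKM. Both efflux transporters were low: Abca1, which loads cholesterol onto apolipoproteins, had a median of 0.425 RPKM (0.0767 to 2.52), and Abcg1 stayed at or under 0.219 CPM in all libraries and was not tested.

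Some levels are uncertain because reads can be shared with near-identical copies or overlapping genes. Idi1, isopentenyl diphosphate isomerase, had a median count of 190, beside 148 for the copy Gm13502, which matches it at 100% over 684 bases. Fdps, farnesyl diphosphate synthase, had 453 beside 331 for Gm3571 (98.87% over 1062 bases). Acat2, Fdft1 and Ggps1 also have close copies. Fdft1 overlaps 774 bases of Ctsb on the opposite strand, with median counts of 1541 and 36101, and Tm7sf2 overlaps 532 bases of Vps51 on the same strand. Npc1 overlaps 967 bases of Rmc1 on the opposite strand, with median counts of 2278 and 3502. Ggps1 overlaps 257 bases of Arid4b and Cyp51 166 bases of Akap9, also on the opposite strand. Acat2 shares 445 bases at 98.65% with Tcp1, which had a median count of 8999. The library kit keeps strand, but whether the counting used it is not given in the sources used here.

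Most of these genes varied little. The ratio of the highest to the lowest CPM over the 14 libraries was 1.21 for Msmo1, 1.22 for Sqle and 1.24 for Nr1h2. It was 1.96 for Lbr, 2.66 for Npc2, 2.68 for Pmvk, 2.78 for Nr1h3, 2.89 for Mylip and 32.5 for Abca1. The larger departures lay in libraries that stand apart. In 24 h withdrawal 2, 16 of the 32 genes were more than 1 log2 unit below their 14-library mean and 3 more than 1 unit above it, and 8 of the 11 enzymes from squalene onwards were that far below. Of all 16497 tested genes, 24.1% were that far below and 21.8% that far above in that library. Sqle had 105 CPM there, Hmgcs1 45.7 CPM and Hsd17b7, the sterol 3-ketoreductase, 6.27 CPM, against 474 to 580, 226 to 391 and 46.1 to 67.5 CPM in the 14 libraries. In CHIR 1, Srebf2 had 23.3 CPM and Scap 10.4 CPM, against 207 to 302 and 61.4 to 79.5 CPM. Besides its mitochondrial share, 24 h withdrawal 2 had a club cell list sum of 675 CPM, against 125 and 153 CPM in the other 24 h libraries. Its AT2 list sum was 166242 CPM, against 81970 and 77458 CPM. The part of RNA quality and of other cells in its values was not tested.

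**Figure D1:**
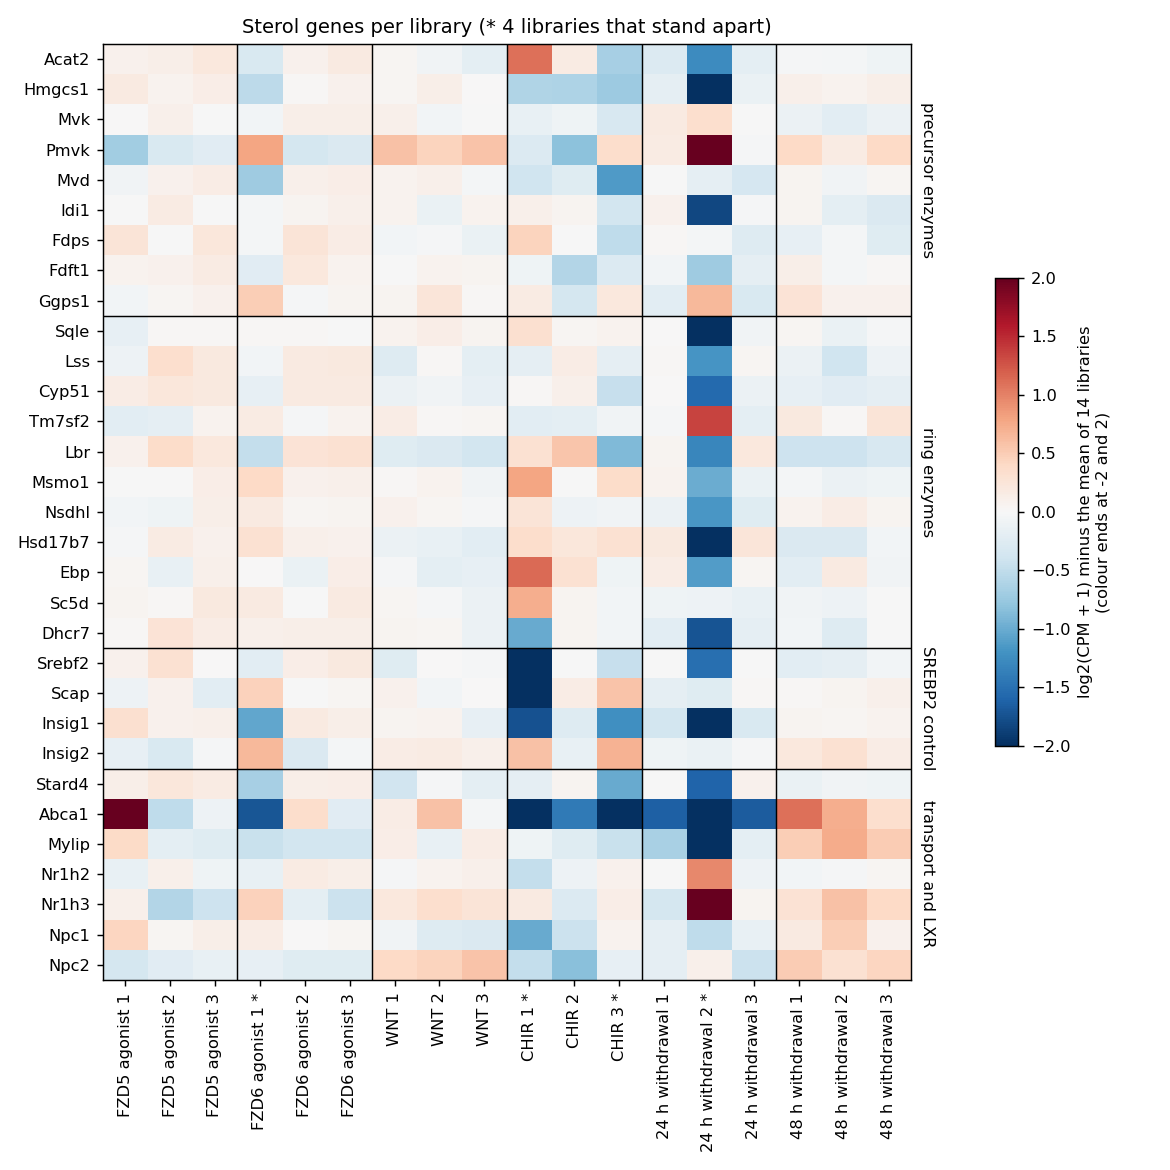
Each cell is the log2 difference of a gene's CPM in 1 library from its 14-library mean, with genes in rows by role and libraries in columns by group. The column of 24 h withdrawal 2 holds low values for 16 genes, while the 14 libraries that do not stand apart differ little for most genes.

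Across all 18 libraries, edgeR called 0 of the 31 tested genes at an adjusted p under 0.05 for any difference between the 6 groups, where 0.649% of 16497 genes were called. Npc2 had the smallest value, with an edgeR adjusted p of 0.0883. DESeq2 called 2 of the 31 (10.7% of all genes) and limma voom with quality weights, which gives poorer libraries less weight, called 21 (34.8%). With the 14 libraries edgeR called 17 of 31, or 54.8%, against 29.3% of 17433 genes.

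The withdrawal groups ask what losing CHIR99201 does. Hmgcs1, at the entry of the mevalonate route, had 227, 226 and 208 CPM in CHIR libraries, 307, 45.7 and 315 CPM after 24 h and 370, 362 and 374 CPM after 48 h. The 48 h libraries lay above all CHIR libraries, and so did both 24 h libraries other than 24 h withdrawal 2. Insig1, whose product retains SREBP2 and whose transcript SREBP2 itself induces, had 63.2, 179 and 90.9 CPM with CHIR, 166, 49.1 and 174 CPM after 24 h and 223, 220 and 224 CPM after 48 h, again with the 48 h libraries highest. Sqle, in contrast, had 660, 544 and 555 CPM with CHIR, 534, 105 and 503 CPM after 24 h and 544, 482 and 520 CPM after 48 h. Its 24 h libraries all lay below its CHIR libraries and overlapped with its 48 h libraries. The 48 h and CHIR ranges met only at their edge, with a highest 48 h value of 543.55 CPM and a lowest CHIR value of 543.49 CPM. All 3 genes are known SREBP2 targets.

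Npc2 had 1809, 1398 and 2245 CPM with CHIR, 2225, 2699 and 1861 CPM after 24 h and 3570, 3085 and 3373 CPM after 48 h. Its 48 h libraries lay above every library of the other 2 groups. With all 18 libraries it rose in 48 h withdrawal over CHIR, by 0.88 on the log2 scale (edgeR adjusted p = 0.0386, SE 0.212). It was the only one of 31 genes called there, beside 2.59% of all genes in either direction and 1.1% in the higher direction, and 5 of the 31 (16.1%) had an unadjusted p under 0.05, beside 16.5% of all genes. DESeq2 called 2 (8.94% of all genes) and limma voom 2 (6.71%). The call was kept without CHIR 3 (adjusted p = 0.0139) but lost without any 1 of the other 5 libraries of the 2 groups (0.0808 to 0.169), and lost in a fit of only these 2 groups (edgeR adjusted p = 0.148, 0.851% of all genes called). The fold change over all these fits was 0.74 to 1.07.

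**Figure D2:**
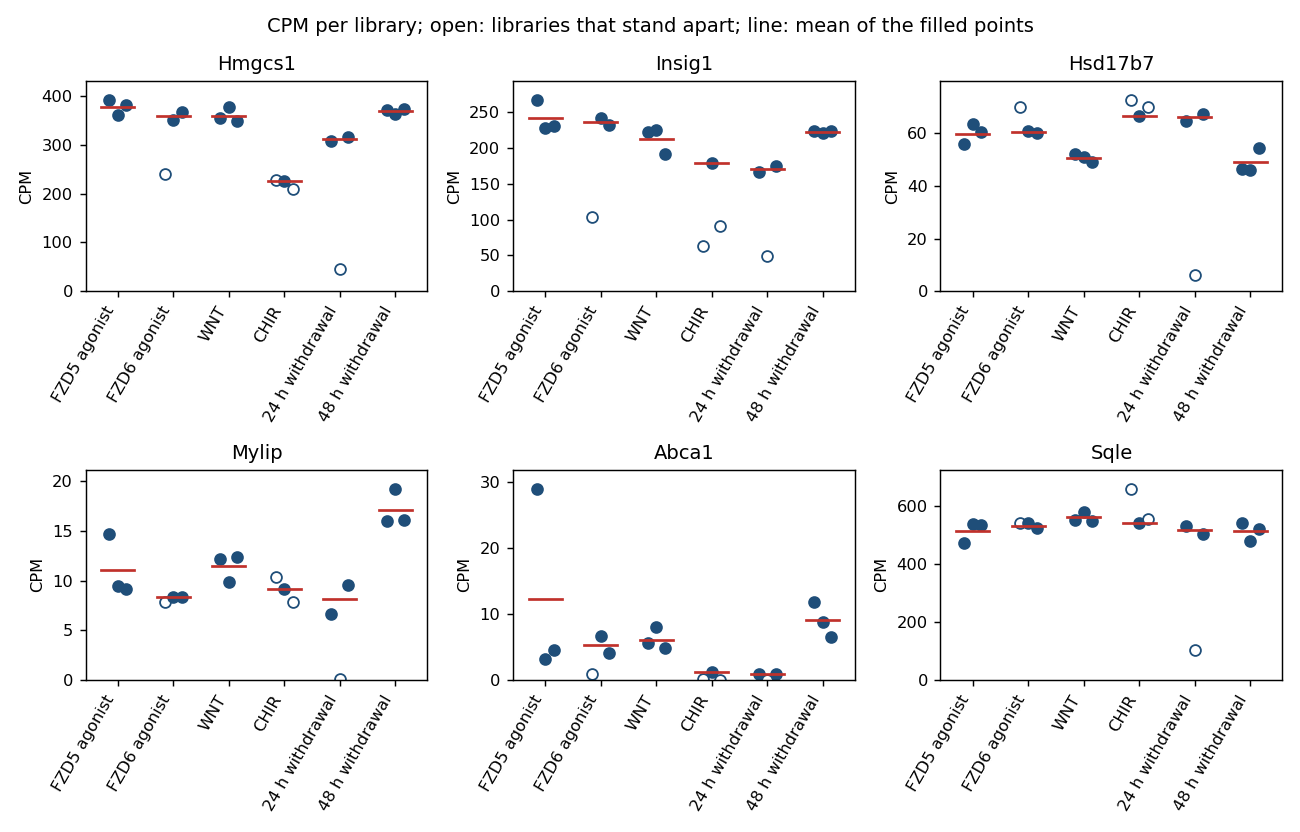
CPM of 6 sterol genes in each library, by group, with open circles for the 4 libraries that stand apart and a line at the mean of the filled points. Hmgcs1 and Insig1 are higher after 48 h than with CHIR, Hsd17b7 is lower, and the Sqle ranges of these groups meet only at their edge.

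After 24 h against CHIR, edgeR on 18 libraries called 0 of 31 genes and 0% of all genes, with 10 of the 31 (32.3%) and 17% of all genes at an unadjusted p under 0.05. DESeq2 called 0 (3.16% of all genes) and limma voom 0 (0%). The smallest p belonged to Msmo1, with a log2 fold change of -0.71 (SE 0.248, edgeR adjusted p = 0.199), Pmvk, phosphomevalonate kinase, with 1.22 (SE 0.47, 0.223) and Acat2, the cytosolic thiolase that starts the route, with -0.89 (SE 0.348, 0.226). Msmo1 had 244, 118 and 213 CPM after 24 h and 406, 231 and 301 CPM with CHIR, and the lowest 24 h library and the upper 2 CHIR libraries stand apart. Without them its log2 fold change was -0.01 (SE 0.101, edgeR adjusted p = 0.987). For Pmvk the highest 24 h library, with 553 CPM, stands apart. The other 24 h libraries had 152 and 133 CPM, and the CHIR libraries 112, 76.2 and 172 CPM. For Acat2 the highest CHIR library, CHIR 1 with 331 CPM, and the lowest 24 h library, with 63.4 CPM, both stand apart. The other CHIR libraries had 171 and 96.8 CPM, and the other 24 h libraries 127 and 133 CPM. With 14 libraries, and so with CHIR 2 alone as the reference, 6 of 31 were called against 4.5% of all genes (2.75% higher and 1.74% lower): Pmvk, Hmgcs1, Npc2 and Fdft1 higher and Acat2 and Lbr lower.

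Between 48 h and 24 h, the 14-library fit called 8 genes higher and 2 lower of 31 (32.3%), against 18% of all genes (8.49% higher and 9.5% lower), while the 18-library fit called 0 of 31 and 0.0485% of all genes (6 of 31 and 18% of all genes at an unadjusted p under 0.05). DESeq2 on 18 libraries called 2 (3.6% of all genes) and limma voom 12 (20%). The median log2 fold change of the 31 genes in the 14-library fit was 0.14, beside -0.02 for all genes. In SREBP2 control, Insig1 rose by 0.40 on the log2 scale (edgeR adjusted p = 0.00434, SE 0.085) and Insig2, which has the same retention role, by 0.30 (SE 0.0924, 0.0362). Srebf2 itself had 212, 215 and 235 CPM after 48 h and 245, 85.1 and 244 CPM after 24 h and was not called in either fit.

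Among the enzymes, Hmgcs1 rose by 0.26 on the log2 scale (edgeR adjusted p = 0.0127, SE 0.0651). Ggps1, which makes the geranylgeranyl group for protein anchoring, rose by 0.42 (SE 0.0928, edgeR adjusted p = 0.00509). In 24 h withdrawal 2, left out here, Ggps1 had 73.3 CPM, above the 48 h libraries (49.1 to 56.4 CPM). With 18 libraries its log2 fold change was 0.04 (SE 0.245). Nsdhl, a C4-demethylation enzyme, rose by 0.29 in the 14-library fit (SE 0.078, edgeR adjusted p = 0.0184). Hsd17b7, which acts in the same demethylation step, fell instead. It had 46.3, 46.1 and 54.5 CPM after 48 h, against 64.7, 6.27 and 67.5 CPM after 24 h. Apart from 24 h withdrawal 2 the groups do not overlap (log2 fold change -0.42, SE 0.0834, edgeR adjusted p = 0.00255). With all 18 libraries the log2 fold change of Hsd17b7 had the other sign, at 0.09 (SE 0.5). Lbr, the lamin B receptor, whose membrane domain is a sterol C14-reductase, had 128, 128 and 136 CPM after 48 h, against 178, 68.5 and 199 CPM after 24 h (log2 fold change -0.51, SE 0.0793, edgeR adjusted p = 0.000391). Sqle had a log2 fold change of 0.00 (SE 0.0742, adjusted p = 0.999).

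Among transport and LXR genes, Npc2 rose by 0.72 (SE 0.0943, edgeR adjusted p = 0.00011). Mylip, the E3 ligase IDOL that marks lipoprotein receptors for degradation and an LXR target, had 16.0, 19.2 and 16.1 CPM after 48 h, against 6.65, 0.0705 and 9.58 CPM after 24 h, so that the 48 h libraries were all higher (log2 fold change 1.08, SE 0.208, edgeR adjusted p = 0.00219). Npc1, the membrane partner of Npc2 in the lysosome, rose by 0.44 (SE 0.13, 0.0287). Abca1, also an LXR target, had 11.7, 8.84 and 6.55 CPM after 48 h, against 0.918, 0 and 0.890 CPM after 24 h. Its groups do not overlap either, but with a log2 fold change of 3.33 it was not called (SE 1.08, edgeR adjusted p = 0.0672). Leaving out any 1 of the 5 libraries of these 2 groups kept the calls of Npc2, Lbr, Hsd17b7 and Mylip in 5 of 5 fits, while those of the other 6 genes were lost in at least 1. A fit of the 6 libraries of these groups, with 24 h withdrawal 2 included, called 0 of 31 and 0% of all genes.

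Markers moved with these times as well. Among libraries that do not stand apart, the AT1 list summed to 4008 CPM in CHIR 2, 6302 and 7035 CPM after 24 h and 8871 to 9832 CPM after 48 h, and the cell cycle list to 855 CPM, 512 to 602 CPM and 255 to 318 CPM in the same order. The club cell list, in which Cyp2f2 takes most of the sum, was at 47.0 CPM, 125 to 153 CPM and 525 to 658 CPM. The part of these changes in the sterol genes was not tested. In bulk libraries fewer cells of a type and less RNA per cell cannot be told apart.

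The ligand groups ask what Wnt input through a chosen receptor does after CHIR99201 is gone. The FZD5 agonist can be set against 48 h withdrawal and WNT with every library in place, since none of the 9 libraries of these groups stands apart. In the fit of 6 libraries, edgeR called 3 genes higher and 4 lower of 31 with the FZD5 agonist than after 48 h (22.6%), against 13% of all genes (6.89% higher and 6.13% lower). Lbr, Cyp51 and Stard4 were higher, and Npc2, Pmvk, Insig2 and Nr1h3 were lower. Against WNT it called 4 higher and 3 lower of 31 (22.6%), against 13.1% of all genes (6.75% higher and 6.31% lower), with Lbr, Cyp51, Stard4 and Npc1 higher and Npc2, Pmvk and Insig2 lower. The 2 contrasts share the FZD5 agonist libraries. The 18-library fit, in which all groups share 1 estimate of the spread, called 0 of 31 and 0% of all genes in each contrast (at an unadjusted p under 0.05, 1 of 31 in each, beside 2.38% of all genes against 48 h withdrawal and 2.5% against WNT), whereas limma voom with quality weights called 10 in each, beside 20.6% of all genes against 48 h withdrawal and 21.4% against WNT. DESeq2 on 18 libraries called 0 against 48 h withdrawal (0.224% of all genes) and 1 against WNT (0.241%).

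In GRCm38 these genes span chr1:181815335-181843046 (Lbr, minus strand), chr5:4081145-4104746 (Cyp51, minus), chr12:84754562-84773152 (Npc2, minus), chr3:89454541-89469013 (Pmvk, plus) and chr1:121304353-121332589 (Insig2, minus). Lbr had 182, 221 and 198 CPM with the FZD5 agonist, against 128, 128 and 136 CPM after 48 h and 144, 140 and 132 CPM with WNT. Every FZD5 agonist library lay above every library of both other groups. The log2 fold change was 0.60 over 48 h withdrawal (SE 0.0822, edgeR adjusted p = 0.00216) and 0.52 over WNT (SE 0.0831, 0.00492). Cyp51, lanosterol 14α-demethylase, whose product is the substrate of the Lbr reductase, had 294, 310 and 301 CPM with the FZD5 agonist, against 236, 225 and 232 CPM after 48 h and 244, 252 and 236 CPM with WNT. These groups do not overlap either, with log2 fold changes of 0.38 over 48 h withdrawal (SE 0.0657, edgeR adjusted p = 0.00656) and 0.30 over WNT (SE 0.0687, 0.0208). The 2 genes, of successive steps of the route, were thus higher than in both these groups. Against 24 h withdrawal, treated below, Cyp51 but not Lbr was called. Tm7sf2, the other C14-reductase, had log2 fold changes below 0 that were not called.

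Stard4, a soluble carrier that moves sterol between membranes, had 97.4, 105 and 99.8 CPM with the FZD5 agonist, against 81.8, 85.3 and 84.1 CPM after 48 h and 68.6, 88.0 and 77.7 CPM with WNT. The groups do not overlap, with log2 fold changes of 0.26 over 48 h withdrawal (SE 0.0651, edgeR adjusted p = 0.0302) and 0.36 over WNT (SE 0.0933, 0.0337). Npc2 went the other way, with 1968, 2155 and 2258 CPM with the FZD5 agonist, against 3570, 3085 and 3373 CPM after 48 h and 3319, 3434 and 3724 CPM with WNT. No library overlaps, and the log2 fold change was -0.66 against 48 h withdrawal (SE 0.095, edgeR adjusted p = 0.00275) and -0.72 against WNT (SE 0.0938, 0.00192). Both code for sterol carriers, Stard4 in the cytosol and Npc2 in the lysosome.

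Pmvk had 83.1, 109 and 116 CPM with the FZD5 agonist, against 179, 152 and 180 CPM after 48 h and 204, 184 and 201 CPM with WNT. The groups do not overlap, with log2 fold changes of -0.74 against 48 h withdrawal (SE 0.127, edgeR adjusted p = 0.00762) and -0.94 against WNT (SE 0.114, 0.0014). Pmvk was the only called gene of the 9 precursor enzymes in both contrasts. Its neighbours in the route, Mvk and Mvd, were not called.

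Insig2 had 70.4, 63.3 and 77.6 CPM with the FZD5 agonist, against 91.2, 97.7 and 87.2 CPM after 48 h and 87.4, 88.8 and 84.3 CPM with WNT, without overlap. The log2 fold change was -0.39 against 48 h withdrawal (SE 0.0888, edgeR adjusted p = 0.0194) and -0.31 against WNT (SE 0.0862, 0.0449). Insig1, in contrast, had 266, 228 and 230 CPM with the FZD5 agonist, against 223, 220 and 224 CPM after 48 h and 222, 226 and 192 CPM with WNT, and was not called. Srebf2 had 261, 302 and 246 CPM with the FZD5 agonist, against 212, 215 and 235 CPM after 48 h and 207, 245 and 240 CPM with WNT, also without a call in the fits of 6 libraries.

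Nr1h3 had 4.67, 2.52 and 2.98 CPM with the FZD5 agonist, against 5.49, 7.0 and 6.02 CPM after 48 h and 5.16, 5.69 and 5.34 CPM with WNT. It fell by 0.88 on the log2 scale against 48 h withdrawal (edgeR adjusted p = 0.0355, SE 0.231) and was lower than with WNT without passing the test there. Npc1 had 74.0, 55.8 and 59.5 CPM with the FZD5 agonist, against 51.6, 45.5 and 44.3 CPM with WNT, and rose by 0.42 (SE 0.118, edgeR adjusted p = 0.0468). After 48 h it had 61.6, 76.9 and 57.9 CPM, which overlap with the FZD5 agonist libraries. Hmgcs1 had 391, 362 and 381 CPM with the FZD5 agonist, against 370, 362 and 374 CPM after 48 h and 354, 377 and 348 CPM with WNT, and was not called. Abca1 had 28.9 CPM in FZD5 agonist 1 and 3.19 and 4.57 CPM in the other FZD5 agonist libraries, so that its mean rests on 1 library.

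**Figure D3:**
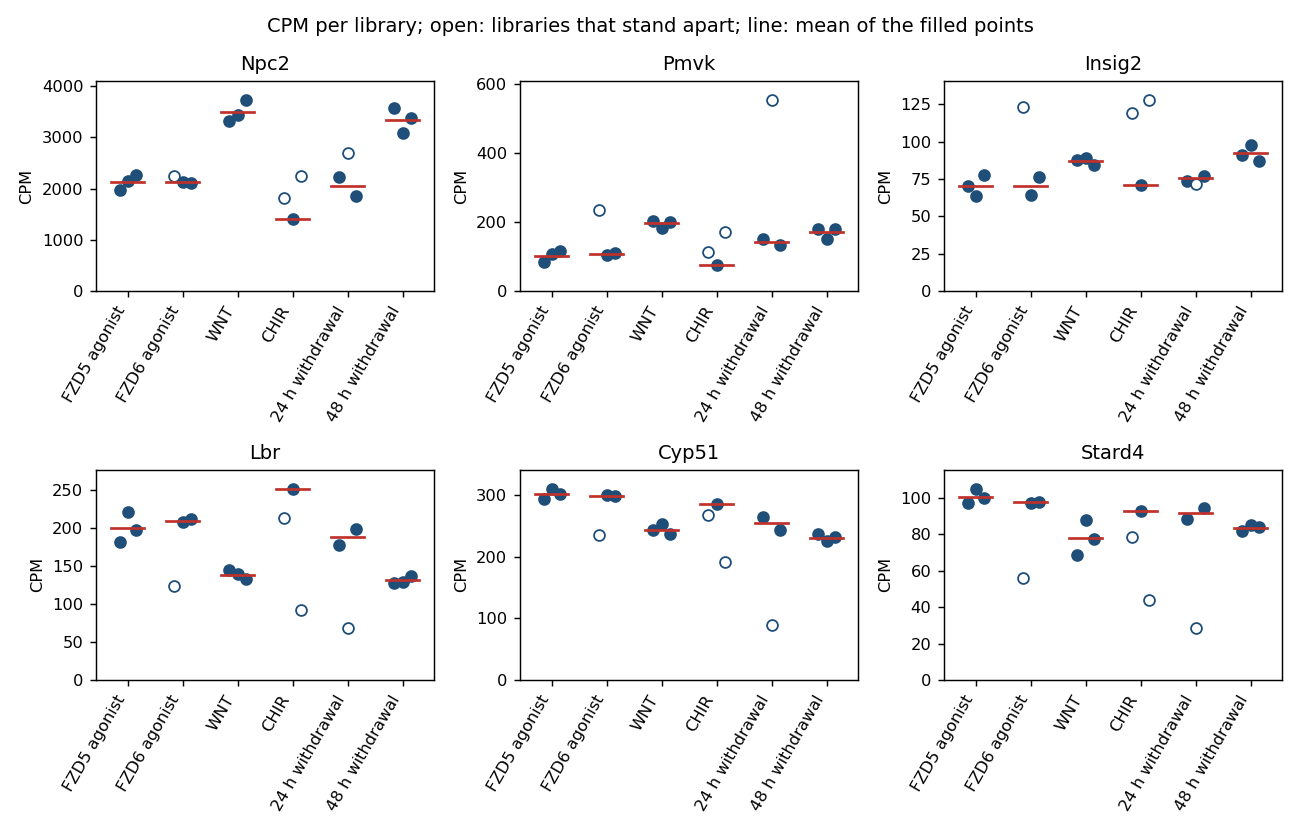
CPM of Npc2, Pmvk, Insig2, Lbr, Cyp51 and Stard4 in each library, by group, with open circles for the 4 libraries that stand apart and a line at the mean of the filled points. The FZD5 agonist libraries lie below the WNT and 48 h withdrawal libraries for Npc2, Pmvk and Insig2 and above them for Lbr, Cyp51 and Stard4.

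**Figure D4:**
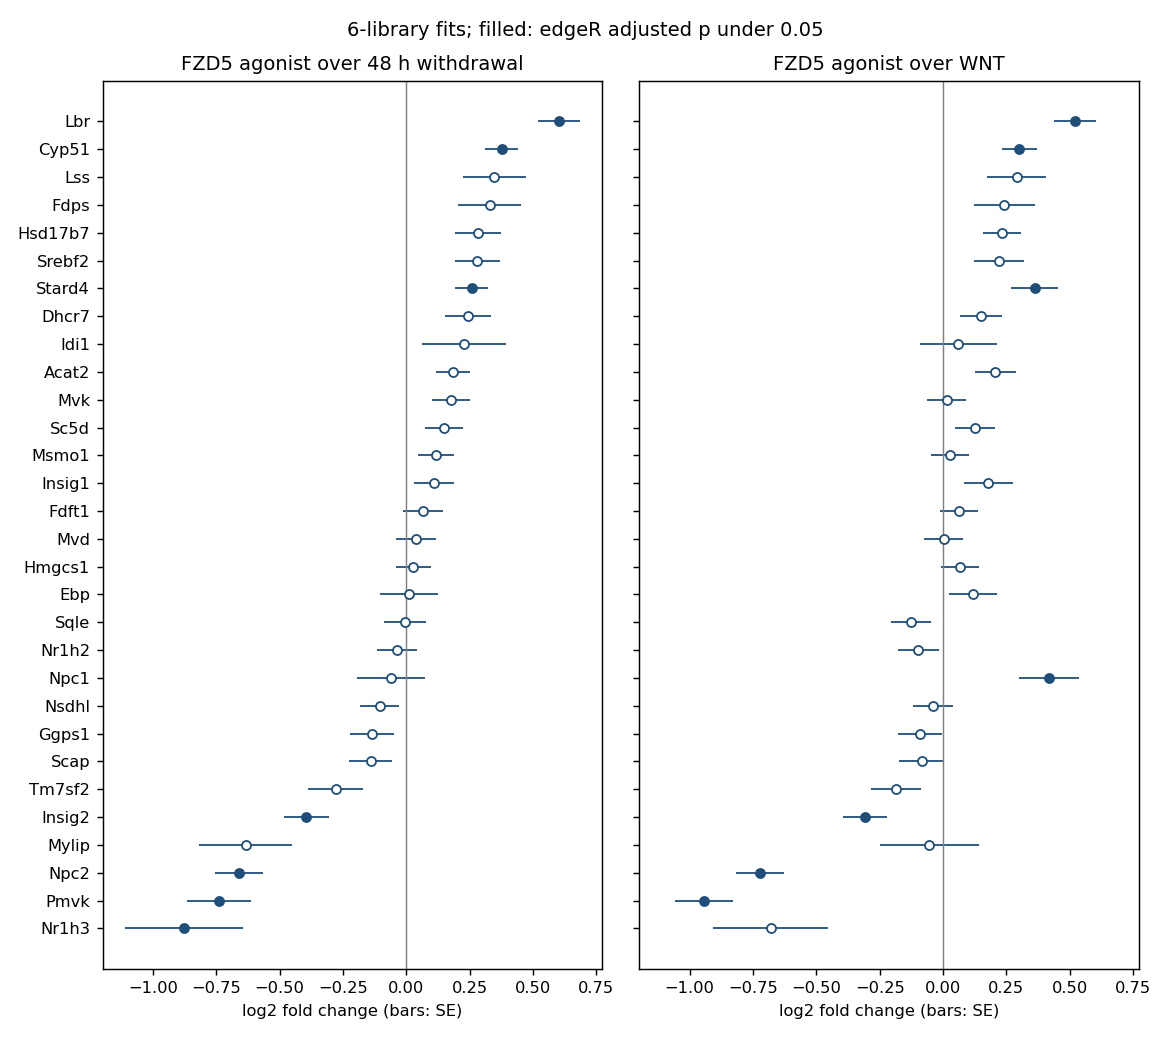
Log2 fold change with its SE for 30 tested genes, FZD5 agonist over 48 h withdrawal on the left and over WNT on the right, from fits of 6 libraries. Filled points passed an edgeR adjusted p of 0.05, and Abca1 is left out because its SE would stretch the axis.

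With 14 libraries fitted together, the FZD5 agonist against 48 h withdrawal gave 7 genes higher and 5 lower of 31 (38.7%), beside 15.7% of all genes (8.86% higher and 6.84% lower). By role these were 1 of 9 precursor enzymes (Pmvk, lower), 5 of 11 enzymes from squalene onwards (Lss, Cyp51, Lbr, Hsd17b7 and Dhcr7, all higher), 2 of 4 SREBP2 control genes (Srebf2 higher, Insig2 lower) and 4 of 7 transport and LXR genes (Stard4 higher, Mylip, Nr1h3 and Npc2 lower). The calls of Lbr, Npc2, Cyp51, Pmvk and Insig2 were kept in 6 of 6 fits that each left out 1 library of the 2 groups. The others were lost in at least 2 of the 6, and Mylip was kept in 1. Against WNT 6 were higher and 4 lower (32.3%), beside 16.7% of all genes (8.74% higher and 7.92% lower), and Pmvk, Npc2, Lbr, Cyp51 and Stard4 were kept in 6 of 6.

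For the FZD6 agonist only 2 libraries remain without FZD6 agonist 1. Lbr had 123 CPM in that library and 208 and 212 CPM in the other 2, against 128, 128 and 136 CPM after 48 h and 144, 140 and 132 CPM with WNT. Pmvk had 235 CPM in FZD6 agonist 1 and 106 and 111 CPM in the others, and Insig2 123 CPM and then 64.3 and 76.4 CPM, so for these 3 genes FZD6 agonist 1 lay beyond the 48 h and WNT libraries, on the side away from the other FZD6 agonist libraries. In FZD6 agonist 1 the club cell list summed to 1029 CPM (212 and 154 CPM in the other 2), the macrophage list to 6164 CPM, mostly Lyz1 (1490 and 1286 CPM), the cell cycle list to 237 CPM (688 and 606 CPM), the AT1 list to 8275 CPM (7261 and 7308 CPM) and the basal list to 12.6 CPM (0 in both). The AT2 list there summed to 134544 CPM (89321 and 94110 CPM). The part of these sums in the values of FZD6 agonist 1 was not tested. Npc2, at 2236, 2129 and 2112 CPM, was below every 48 h and WNT library in all 3.

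In the 14-library fit the FZD6 agonist gave 6 genes higher and 5 lower of 31 than 48 h withdrawal (35.5%), beside 12.1% of all genes (7.42% higher and 4.73% lower). Lbr rose by 0.69 on the log2 scale (edgeR adjusted p = 4.65e-05, SE 0.0791) and Cyp51 by 0.38 (SE 0.0634, 0.000928), while Npc2 fell by 0.65 (SE 0.0941, 0.00031) and Pmvk by 0.65 (SE 0.12, 0.00233). These 4 calls were kept in 5 of 5 fits that each left out 1 library of the 2 groups. Mylip had 7.84, 8.38 and 8.32 CPM with the FZD6 agonist, against 16.0, 19.2 and 16.1 CPM after 48 h, with no overlap. It fell by 1.03 (SE 0.206, edgeR adjusted p = 0.00396) and was kept in 3, and Insig2 fell by 0.38 (SE 0.0925, 0.0132) and was kept in 4. Against WNT 3 were higher (Lbr, Cyp51 and Stard4) and 3 lower (Npc2, Pmvk and Insig2), or 19.4%, beside 11.8% of all genes (6.61% higher and 5.19% lower). With 18 libraries edgeR called 0 of 31 in either contrast, with 1 of 31 at an unadjusted p under 0.05 in each (4.04% and 3.67% of all genes), and 0.0121% of all genes called against 48 h and 0% against WNT. DESeq2 called 0 against 48 h (0.403% of all genes) and 1 against WNT (0.378%), and limma voom 11 in each (22.6% and 22.3%). The fits of 6 libraries, with FZD6 agonist 1 included, called Mylip alone against 48 h withdrawal (log2 fold change -1.07, edgeR adjusted p = 0.046, SE 0.127, beside 0.199% of all genes) and 0 against WNT (0.0592% of all genes).

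No gene passed the test between the agonists. For the FZD5 agonist against the FZD6 agonist, edgeR called 0 of 31 with 18 libraries (0% of all genes), and 0 of 31 with 14 (0.00574% of all genes). At an unadjusted p under 0.05 these were 0 of 31 (0.994% of all genes) and 1 of 31 (3.06%). DESeq2 (0% of all genes) and limma voom (0.00606%) also called 0. Log2 fold changes in the 14-library fit ran between -0.18 and 1.20, the last for Abca1. WNT against 48 h withdrawal likewise gave 0 of 31 and 0% of all genes with edgeR on 18 or 14 libraries or on the 6 of these groups, with 0, 3 and 5 genes at an unadjusted p under 0.05 (0.212%, 7.71% and 10.2% of all genes), and 0 by DESeq2 (0% of all genes) and limma voom (0.00606%). Log2 fold changes ran between -0.57 and 0.21 in the fit of 6 libraries, where Mylip had -0.57 (SE 0.121, edgeR adjusted p = 0.319) and Npc1 -0.47 (SE 0.107, 0.319). A missed threshold does not show that these groups act alike.

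Marker sums differed between these groups too. The cell cycle list summed to 509 to 669 CPM with the FZD5 agonist, against 314 to 390 CPM with WNT and 255 to 318 CPM after 48 h. The club cell list summed to 141 to 355 CPM with the FZD5 agonist, against 496 to 551 CPM with WNT and 525 to 658 CPM after 48 h, and the AT1 list to 6539 to 8611 CPM, against 8440 to 8981 CPM and 8871 to 9832 CPM. The macrophage list, mostly Lyz1, summed to 982 to 1145 CPM with the FZD5 agonist, against 233 to 414 CPM with WNT and 242 to 425 CPM after 48 h. Of its other 7 genes, Adgre1, Marco and Itgax were at 0 in all 18 libraries, Ptprc, Mrc1 and Csf1r reached at most 0.0729, 0.893 and 0.624 CPM, and Cd68 had 4.5 to 13.5 CPM in 17 libraries and 0.0705 CPM in 24 h withdrawal 2. Of the 3 Wnt target genes listed, Axin2 had 4.94, 2.88 and 2.95 CPM with the FZD5 agonist, against 0.384, 0.373 and 0.238 CPM with WNT and 0.413, 0.771 and 0.167 CPM after 48 h. Lgr5 had 0.491, 1.13 and 0.957 CPM with the FZD5 agonist, against 0, 0.216 and 0.31 CPM with WNT and 0, 0 and 0.112 CPM after 48 h. Nkd1 had 45.8, 38.9 and 33.8 CPM with the FZD5 agonist, against 48.7, 80.9 and 79.4 CPM with WNT and 67.8, 30.6 and 57.2 CPM after 48 h, so that the FZD5 agonist libraries lay below those of WNT and overlapped with those after 48 h. The part of these differences in the sterol genes was not tested.

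Against 24 h withdrawal the 18-library fit called 0 of 31 genes for each ligand, where 0.00606% of all genes were called with the FZD5 agonist, 0% with the FZD6 agonist and 0.0303% with WNT. At an unadjusted p under 0.05 there were 5, 2 and 3 of 31 in the same order (17.6%, 15.3% and 16.3% of all genes), DESeq2 called 1, 0 and 1 (1%, 1.28% and 2.33% of all genes), and limma voom 1, 0 and 5 (2.01%, 0.776% and 14.7%). With 14 libraries the FZD5 agonist gave 5 higher and 1 lower of 31 (19.4%), beside 4.23% of all genes (2.37% higher and 1.86% lower). Insig1 had 266, 228 and 230 CPM with the FZD5 agonist, against 166 and 174 CPM in the 24 h libraries used, and rose by 0.53 on the log2 scale (edgeR adjusted p = 0.00385, SE 0.0853). Acat2 had 163, 166 and 178 CPM against 127 and 133 CPM (log2 fold change 0.40, SE 0.0752, adjusted p = 0.00912). Neither pair of groups overlaps.

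Hmgcs1 rose by 0.30 in the same contrast (SE 0.0651, edgeR adjusted p = 0.0184), as did Dhcr7, which makes the last reduction of the sterol B ring, by 0.37 (SE 0.0887, 0.029) and Cyp51 by 0.27 (SE 0.0643, 0.0302), and Pmvk fell by 0.45 (SE 0.117, 0.0422). Lbr, Npc2, Stard4 and Insig2, called against 48 h withdrawal and WNT, were not called here. Their means were 200, 2127, 101 and 70.5 CPM with the FZD5 agonist. In the 24 h libraries used they were 188, 2043, 91.6 and 75.4 CPM. No call was kept in all 5 fits that each left out 1 library, and those of Insig1 and Acat2 were kept in 4. The FZD6 agonist gave 2 of 31 (6.45%, beside 0.677% of all genes, 0.533% higher and 0.143% lower), again Insig1 with 0.49 (SE 0.0923, 0.0221) and Acat2 with 0.39 (SE 0.0816, 0.0448), both lost in 4 of 4 such fits. WNT gave 5 higher and 2 lower (22.6%, beside 13.6% of all genes, 6.75% higher and 6.85% lower), led by Npc2 with 0.80 (SE 0.0946, 6.36e-05), the only call kept in 5 of 5, and Lbr with -0.42 (SE 0.0794, 0.0027). Ggps1, Pmvk, Insig1 and Hmgcs1 were also higher and Hsd17b7 lower. With 18 libraries the log2 fold changes of Pmvk (-0.51), Ggps1 (-0.002) and Hsd17b7 (0.14) for WNT had the other sign. The library left out, 24 h withdrawal 2, had 553 CPM of Pmvk and 73.3 CPM of Ggps1, above every WNT library.

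Against CHIR, the 18-library fit called Npc2 for WNT, with 3319, 3434 and 3724 CPM with WNT, against 1809, 1398 and 2245 CPM with CHIR, and no overlap. Its log2 fold change was 0.94 (SE 0.212, edgeR adjusted p = 0.0343), as 1 of 31 genes, beside 1.92% of all genes in either direction and 0.873% higher. DESeq2 called 2 (6.77% of all genes) and limma voom 3 (5.64%). The call was kept without CHIR 3 (adjusted p = 0.0131), and lost without any 1 of the other 5 libraries (0.0704 to 0.165) and in the fit of only these 2 groups (0.142, with 0.711% of all genes called). For the FZD5 and FZD6 agonists edgeR called 0 of 31 each, beside 0.00606% of all genes each, with 5 and 1 genes at an unadjusted p under 0.05 (13.5% and 6.47% of all genes), and DESeq2 called 1 and 0 (4.64% and 0.561% of all genes) and limma voom 0 and 0 (0.509% and 0.145%).

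With 14 libraries and CHIR 2 as the only CHIR library, edgeR called 6 of 31 for the FZD5 agonist (19.4%, beside 13.6% of all genes), 4 for the FZD6 agonist (12.9%, beside 8.48%), 7 for WNT (22.6%, beside 26.6%) and 14 for 48 h withdrawal (45.2%, beside 27.5%). The share for WNT was below the background. Hmgcs1, Npc2 and Fdft1, squalene synthase, were called higher in all 4 contrasts. CHIR 2 was the lowest CHIR library for Npc2, at 1398 CPM, and for Fdft1, at 27.2 CPM beside 39.0 and 33.8 CPM in CHIR 1 and 3. For Fdft1 the log2 fold changes in these contrasts were 0.66 to 0.79 with 14 libraries, and 0.34 to 0.42 with 18, where it was not called. For Hmgcs1 the 9 libraries of the FZD5 agonist, WNT and 48 h groups had 348 to 391 CPM, against 208 to 227 CPM in the 3 CHIR libraries. Its log2 fold change in the 14-library fit was 0.77 for the FZD5 agonist (SE 0.0857, edgeR adjusted p = 4.93e-05), 0.69 for the FZD6 agonist (SE 0.0894, 0.000248), 0.70 for WNT (SE 0.0853, 2.4e-05) and 0.73 for 48 h withdrawal (SE 0.0855, 1.47e-05). These contrasts share the CHIR 2 library. Srebf2, Sqle and Idi1 were called in none of them, with Srebf2 at 244 CPM, Sqle at 544 CPM and Idi1 at 5.09 CPM in CHIR 2.

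Genes next to this system were read from 5 further lists. With the FZD5 agonist against 48 h withdrawal in the fit of 6 libraries, 5 of 14 genes of sterol esterification and transfer were lower and 0 higher. Scp2, a peroxisomal carrier of sterol and fatty acyl groups, had 90.7, 85.8 and 92.4 CPM with the FZD5 agonist, against 153, 137 and 135 CPM after 48 h and 135, 149 and 153 CPM with WNT, with no overlap. It fell by 0.67 on the log2 scale against 48 h withdrawal (edgeR adjusted p = 0.000942, SE 0.075) and by 0.70 against WNT (SE 0.0764, 0.000915). Lipa, the lysosomal lipase that frees cholesterol from its esters, and Soat1, which esterifies it, fell in both contrasts.

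Of 15 tested genes of fatty acid synthesis, 2 were higher and 1 lower against 48 h withdrawal. Scd1, the stearoyl-CoA desaturase, fell by 0.58 (SE 0.119, edgeR adjusted p = 0.0137), while Acsl3, an acyl-CoA synthetase, and Elovl6, a fatty acid elongase, rose. Of 10 tested genes of oxysterol and LXR signalling outside the 32, Ncor1, a corepressor, fell by 0.24 (SE 0.0653, edgeR adjusted p = 0.0403). Of 12 genes that use isoprenoids 1 fell (Fnta, a prenyltransferase subunit), and of 8 other genes of SREBP processing 0 were called. The background for each of these counts is the 13% of all genes called, or 6.89% higher and 6.13% lower, and no test of a list was made.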

How the data were processed

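Total RNA libraries of 18 samples (TruSeq Stranded kit, per the labels' protocols) were analysed from the deposited gene tables. The authors' counts are whole reads in exons per gene, and the RPKM values in the same tables are those of the authors, deposited beside the counts. Alignment with GSNAP to GRCm38 is named in the submitters' processing notes. Neither versions nor the annotation or counter, nor whether strand was used, can be read from the labels: these are not given in the sources used. Ensembl identifiers were given symbols from GENCODE M21 (52489 of 52636 matched, 99.72%).

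Counts were tested with edgeR 4.0.16 in R 4.3.3 (TMM factors, filterByExpr by group, quasi-likelihood fit, Benjamini-Hochberg adjustment over all genes tested), with all 18 libraries in 1 fit, 16497 genes and a threshold of 0.05. CPM values of genes and lists are counts scaled to the library total in genes times its TMM factor (0.902 to 1.10 over the libraries). The floor of 3 counts was scaled to the total alone. Alternatives were RLE factors, no filter on low counts, DESeq2 1.42.0, limma 3.58.1 voom with quality weights, the replicate number as a block, only the 2 groups compared, leaving out the 4 libraries with a median correlation under 0.96 (17433 genes), and leaving out each library in turn. The scripts were tested on simulated counts. The named genes are, per comparison, up to 6 called members with the smallest p, or the 3 with the smallest p where none was called, besides Hmgcs1, Idi1, Sqle, Insig1, Srebf2 and Abca1, and up to 4 called genes of each related list. Genes called in the alternatives are named as well, after their values were seen. The 32 genes and all lists were chosen with earlier results of these data known. Replicate numbers did not pair the libraries. Promoter windows were read from RefSeq on GRCm38.p6. Where the fit of 14 libraries uses CHIR, it rests on 1 library. The result of 1 gene in a related list is not reported here.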

Additional observations from a re-analysis of the deposited data

How the results depend on the processing

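Counts of sterol genes called among 31 depended on the treatment of 4 libraries. Leaving them out gave, with edgeR and then with DESeq2 (the second chosen after seeing the data), 17 and 20 for any difference, 6 and 6 for 24 h withdrawal over CHIR, 14 and 15 for 48 h over CHIR, 10 and 12 for 48 h over 24 h, 7 and 9 for WNT over 24 h, 6 and 9 for the FZD5 agonist over 24 h, 2 and 3 for the FZD6 agonist over 24 h, 12 and 14 for the FZD5 agonist over 48 h, 11 and 12 for the FZD6 agonist over 48 h, 7 and 10 for WNT over CHIR, 6 and 9 for the FZD5 agonist over CHIR, 4 and 7 for the FZD6 agonist over CHIR, 10 and 10 for the FZD5 agonist over WNT, and 6 and 7 for the FZD6 agonist over WNT (DESeq2 shares of all genes 38.1%, 11.1%, 32.8%, 25%, 20.5%, 10.3%, 3.66%, 22.7%, 19.5%, 31.3%, 21%, 14.9%, 24% and 17.9% in this order), against 0 with 18 libraries except 1 for 48 h and 1 for WNT over CHIR. DESeq2 on 18 libraries gave 2 for any difference, 48 h over CHIR, 48 h over 24 h and WNT over CHIR, and 1 for WNT and the FZD5 agonist over 24 h, the FZD5 agonist over CHIR, and each agonist over WNT. Voom with quality weights gave 21 for any difference, 2 for 48 h over CHIR, 12 for 48 h over 24 h, 5 for WNT and 1 for the FZD5 agonist over 24 h, 10 and 11 for the FZD5 and FZD6 agonists over 48 h, 3 for WNT over CHIR, and 10 and 11 for the FZD5 and FZD6 agonists over WNT. Fits of only the 2 groups gave 7 for the FZD5 agonist over 48 h, 7 over WNT, 1 for the FZD6 agonist over 48 h, and 0 for 48 h and WNT over CHIR, as did fits with no filter. Apart from what leaving out libraries shows, the cause was not tested. WNT over 48 h withdrawal and the FZD5 over the FZD6 agonist gave 0 throughout.

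With 18 libraries, leaving out 1 library gave 0 to 4 for any difference (4 without 24 h withdrawal 2), 0 to 2 for 48 h over CHIR (2 without CHIR 3), 0 to 2 for the FZD5 agonist over 24 h (2 without 24 h withdrawal 3), 0 to 1 for WNT over CHIR and 0 elsewhere. With 14 libraries, an alternative chosen after seeing the data, it gave 6 to 10 for 48 h over 24 h, 1 to 7 for WNT, 0 to 6 for the FZD5 agonist and 0 for the FZD6 agonist over 24 h, 6 to 14 and 4 to 8 for the FZD5 and FZD6 agonists over 48 h, and 6 to 10 and 3 to 5 for the FZD5 and FZD6 agonists over WNT. The replicate block gave 0 in every comparison. Of 45 pairs of libraries with the same number 4 correlated above 0.1 (median r -0.02), and 0 libraries were closest to their own number, so the pairing is of numbers only. Over 122 fold changes of genes named by the rule on the 18-library fit and 1708 alternative values, 86 changed sign, none called in either fit. Genes named only after the alternatives were seen are not among these, and some did reverse. Hsd17b7 in 48 h over 24 h was at 0.09 with 18 libraries and was called lower with 14. In WNT over 24 h, Pmvk (-0.51), Ggps1 (-0.002) and Hsd17b7 (0.14) with 18 libraries were called in the other direction with 14.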

Other observations

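Genes beside the sterol route moved between 48 h and 24 h withdrawal as well. In the fit of 14 libraries edgeR called 18% of all genes (8.49% higher and 9.5% lower). There, 6 of 16 genes of fatty acid synthesis rose and 2 fell. Scd1, which puts the double bond into stearate, had 73231, 67783 and 69014 CPM after 48 h, against 35019 and 40452 CPM in the 24 h libraries used, and rose by 0.90 on the log2 scale (edgeR adjusted p = 2.77e-05, SE 0.101). The desaturases Fads2 and Fads1 rose by 0.57 and 0.44. Of 14 genes of sterol esterification and transfer 5 rose and 0 fell, led by Scp2 with 0.73 (SE 0.0826, edgeR adjusted p = 3.02e-05), followed by Stard3 with 0.51 and Osbpl2 with 0.30, both sterol transfer proteins. Of 12 genes that use isoprenoids 3 fell and 0 rose: Nus1, a subunit of the enzyme that makes dolichol precursors, by 0.57, Coq2, of ubiquinone synthesis, by 0.44 and Rabggtb, a prenyltransferase subunit for Rab proteins, by 0.40. Of 11 tested genes of oxysterol and LXR signalling 2 rose (Arl4c and Ncor1) and 1 fell (Abcg2, at 0.146 CPM or less after 48 h).

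Scp2 also rose with all 18 libraries in 48 h withdrawal over CHIR (log2 fold change 0.79, edgeR adjusted p = 0.0241, SE 0.173) and in WNT over CHIR (0.83, edgeR adjusted p = 0.0232, SE 0.173). It had 153, 137 and 135 CPM after 48 h and 135, 149 and 153 CPM with WNT, against 98.2, 60.3 and 86.6 CPM with CHIR, with no overlap. Pdss1, of ubiquinone side chain synthesis, fell by 1.48 in 48 h withdrawal over CHIR (SE 0.336, edgeR adjusted p = 0.0291). The lists were chosen with earlier results known, and no test of a list was made.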
